A study of Mus musculus with 6 samples.

Results

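Genes that carry cells through mitosis were more abundant in DN3 thymocytes lacking the long isoforms of Tcf1 than in control DN3 thymocytes. Of 59 mitosis, spindle and centromere genes, 49 rose in the p45-deficient cells, where 8.47% of all genes tested rose. Of the 59, 0 fell, where 7.55% of all genes did, and the median change was 1.98-fold. In the Tcf1-deficient cells, bred to lose all Tcf1, 0 of the 59 passed the test against control. The same held for 0 of all 12939 genes tested, so this count does not set the 59 apart. In the Tcf1-deficient cells 43 of the 59 were lower than in p45-deficient cells, where 5.36% of all genes were lower. That count depended on the fit: with only these 2 groups in it, 11 of the 59 were called lower, where 195 of 12601 genes were. The rise took in the cyclins, the Ndc80 complex that grips the spindle, the mitotic kinesins and Anln of the cleavage furrow, while the condensin subunit Ncapd2 and the anaphase protease gene Espl1 had overlapping libraries.

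The 59 genes were chosen by symbol as mitotic kinases, cyclins, spindle checkpoint proteins, kinesins, centromere proteins and condensin subunits. The rule uses no measured value, but the set was put together with earlier results of these data known. All 59 were among the 24015 gene symbols counted, and all 59 were among the 12939 genes with enough reads to be tested. Levels are given as CPM, a gene's count scaled to the size of its library, with library sizes adjusted by TMM (the trimmed mean of M-values), and the lowest count of any of the 59 in any library was 124. Bulk RNA was sequenced from sorted mouse thymocytes that lacked CD4 and CD8, had little CD44 and carried high CD25, the surface phenotype of the third double-negative (DN3) stage. There were 2 libraries for each of 3 genotypes. The p45-deficient mice are p45-/- and lack the long Tcf1 isoforms, called p45. The Tcf1-deficient mice are Lck-cre+ Tcf1 fl/fl, so that a Cre recombinase driven by the promoter of Lck, a T-lineage kinase gene, is meant to remove all Tcf1 proteins. The controls are described as wild type, with neither Cre nor the floxed allele named. Cre is named for the Tcf1-deficient mice only. Cre itself and the loss of Tcf1 therefore cannot be told apart when Tcf1-deficient cells are compared with control or with p45-deficient cells. The labels state no age, no strain and no number of animals, and do not say whether replicate libraries came from different mice. What the p-values measure is therefore the spread of these libraries alone, and that spread may be technical.

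Tcf1, encoded by Tcf7, is an HMG-box transcription factor of the T lineage. DN3 thymocytes rearrange the T cell receptor beta locus, and those that make a working beta chain leave arrest and divide rapidly, a step called beta-selection. Entry into mitosis is driven by Cdk1 with cyclins A and B. Chromosomes are then compacted by condensin, and their centromeres build kinetochores that bind spindle microtubules through the Ndc80 complex. The spindle checkpoint holds back Cdc20 and the anaphase-promoting complex until every kinetochore is attached, after which separase cuts cohesin and the central spindle and contractile ring split the cell. Many of these genes are transcribed late in the cell cycle from promoters that share a CCAAT box, bound by NF-Y, and a cell cycle genes homology region (CHR), bound by MuvB complexes: with B-Myb and FoxM1 they activate the genes, and in the DREAM complex they repress them in resting cells.

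Library totals ran between 19640524 and 28107031 counts. Tcf7 stood at 2340 and 2414 CPM in p45-deficient, 979 and 976 CPM in Tcf1-deficient and 2088 and 1810 CPM in control libraries. Counts per gene do not separate its isoforms or the floxed exons, so they check neither the p45 label nor how complete the loss of Tcf1 was in the Tcf1-deficient cells. The DN3 gene Il2ra, which encodes CD25, had 1561 and 1348 CPM in p45-deficient, 923 and 1991 CPM in Tcf1-deficient and 969 and 1197 CPM in control libraries. The recombinase gene Rag1 had 1621 and 1539 CPM in p45-deficient, 458 and 801 CPM in Tcf1-deficient and 1255 and 951 CPM in control libraries. The first Tcf1-deficient library stood apart on the second principal component (24.7% of variance) and had 372 CPM of Cd4, against 46.1 to 86.5 CPM in the other 5 libraries.

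The 59 genes together took 1.05% and 1.06% of all counts in the p45-deficient libraries, 0.575% and 0.747% in the Tcf1-deficient libraries and 0.673% and 0.593% in the control libraries. Both p45-deficient libraries were above every other library, and the Tcf1-deficient pair lay on either side of the control pair. Rn45s, the ribosomal RNA precursor, took 1.43% and 1.51% of counts in p45-deficient, 2.52% and 1.22% in Tcf1-deficient and 0.482% and 1.24% in control libraries, and its part in the result was not tested. In bulk RNA, fewer cells of a type and less RNA per cell cannot be told apart, so a higher level may reflect more cells in division or more transcript in each. The test was edgeR's quasi-likelihood test over all 12939 genes with Benjamini-Hochberg adjustment, and a gene was called at an adjusted p below 0.05. Against control, 49 of the 59 genes were called higher in p45-deficient cells, where 8.47% of all genes tested were called higher, and 0 were called lower, where 7.55% of all genes were. The median log2 fold change of the 59 was 0.98, against 0.05 over all genes tested, with a range of 0.14 to 1.60. The libraries did not overlap, with the p45-deficient pair higher, for 57 of the 59, where this held for 37.9% of all genes.

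**Figure D1:**
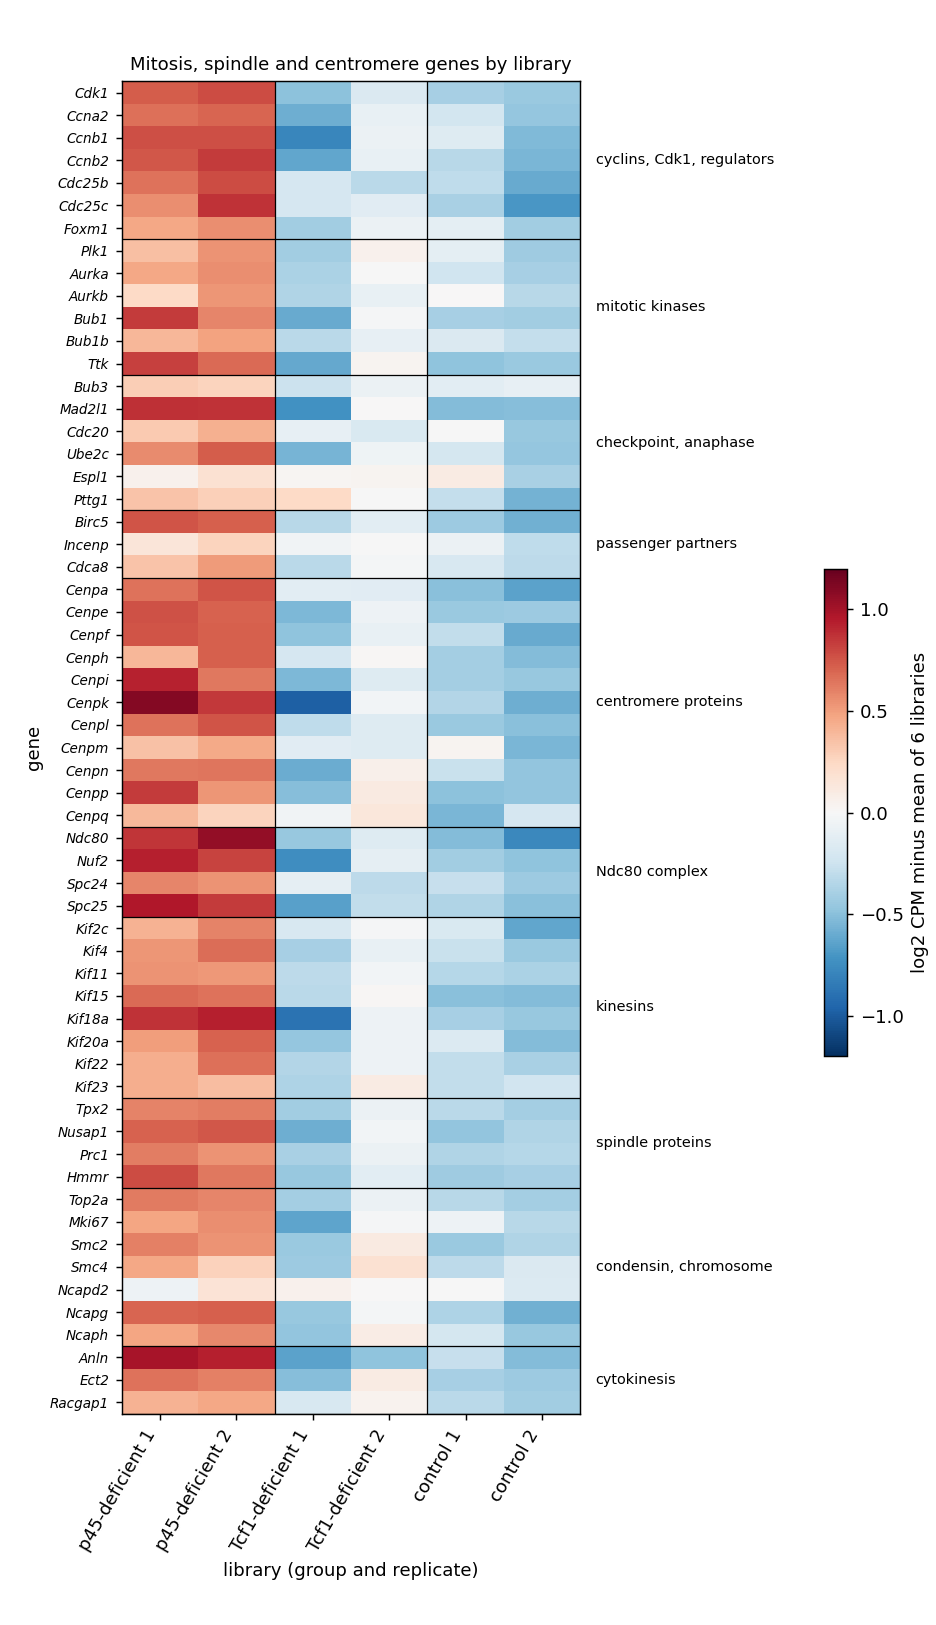
Heat map of the 59 genes (rows, grouped by role) in the 6 libraries (columns). Colour gives the log2 CPM of a gene in a library minus the mean of its log2 CPM over the 6 libraries, so red is above and blue below that mean. The p45-deficient columns are red for nearly every gene, and the first Tcf1-deficient column is bluer than the second.

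**Figure D2:**
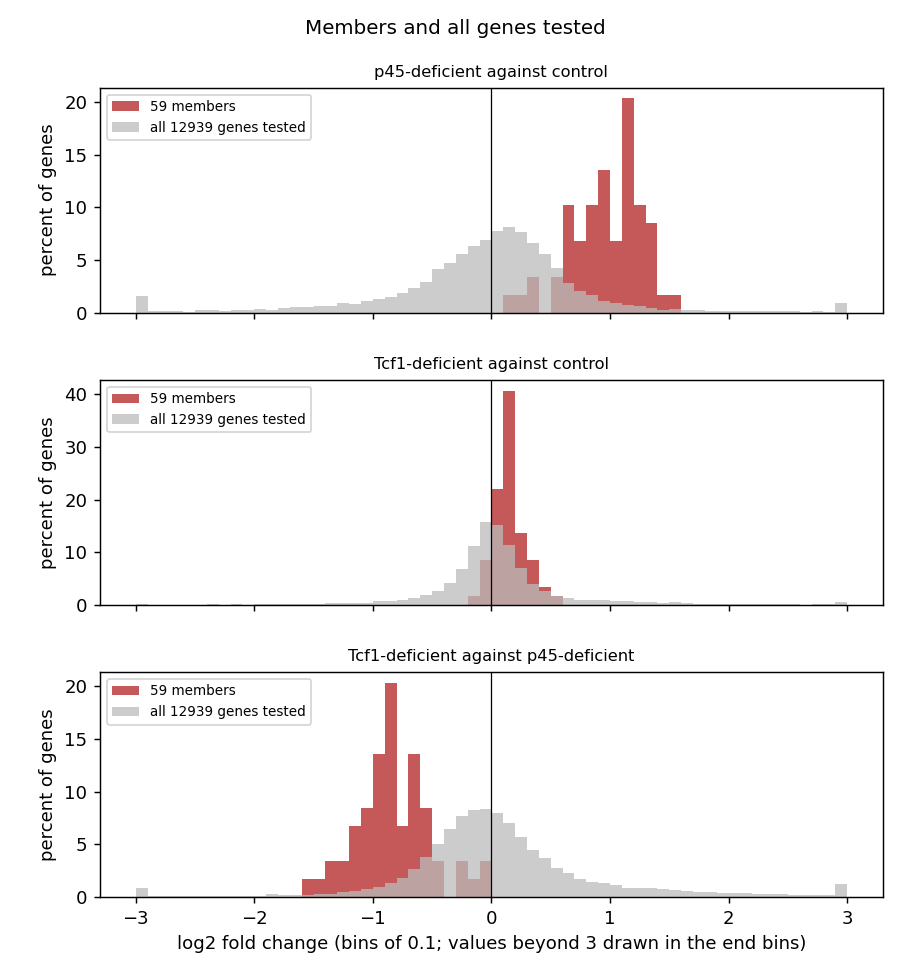
Percent of genes in each bin of log2 fold change (0.1 wide), for the 59 genes in red and all 12939 genes tested in grey, in 3 comparisons from top to bottom. The 59 lie around 0.98 for p45-deficient against control, around 0.14 for Tcf1-deficient against control and around -0.84 for Tcf1-deficient against p45-deficient.

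The p45-deficient libraries differed little from each other. The median log2 difference of the second from the first library over the 59 genes was 0.04 in p45-deficient, 0.34 in Tcf1-deficient and -0.14 in control cells. In the Tcf1-deficient pair 52 of the 59 genes were higher in the second library, 12 of them by more than 1.5-fold, and in the other pairs 0 genes differed by that much. The number of calls depended on single libraries: it was 9 and 16 without the first and the second p45-deficient library, and 13 and 10 without the first and the second control library. With either Tcf1-deficient library left out it was 55 and 57. The 9 genes called under each of the 6 omissions were Cdk1, Cdc25b, Birc5, Cenpa, Cenpl, Ndc80, Spc25, Kif15 and Anln.

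Promoter sequences were set beside these levels because the 59 genes moved together. The RefSeq promoter table (GRCm38.p6, 250 bases before to 50 after each annotated start) held 55 promoters of 50 of the genes. Exact matches on both strands were counted for TTTGAA, the letters of the CHR, for CCAAT, the NF-Y box, and for the E2F letters TTGGCGC and TTCCCGC. For 7 promoters 140 bases are given, each 5′ to 3′ along the gene's strand from 110 bases before the start to 30 after it, with the letters of the CHR or CCAAT, or their reverse complements TTCAAA and ATTGG, in capitals. Cdk1 (chr10:69352883-69353022, minus strand), Ccnb2 (chr9:70421525-70421664, minus), Top2a (chr11:99024160-99024299, minus), Cenpa (chr5:30666776-30666915, plus) and Hmmr (chr11:40733408-40733547, minus) hold both kinds of letters. Ccnb1 (chr13:100786457-100786596, minus) holds CCAAT only, and Nuf2 (chr1:169531435-169531574, minus) holds neither. The last 2 are shown because their transcripts rose as well.

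Cdk1: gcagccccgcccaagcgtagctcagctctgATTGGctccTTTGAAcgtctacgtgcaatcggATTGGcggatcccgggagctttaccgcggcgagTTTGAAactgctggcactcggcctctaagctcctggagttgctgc

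Ccnb2: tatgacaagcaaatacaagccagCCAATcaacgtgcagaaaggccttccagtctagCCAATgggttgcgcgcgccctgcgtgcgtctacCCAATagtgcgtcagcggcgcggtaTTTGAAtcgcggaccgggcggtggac

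Top2a: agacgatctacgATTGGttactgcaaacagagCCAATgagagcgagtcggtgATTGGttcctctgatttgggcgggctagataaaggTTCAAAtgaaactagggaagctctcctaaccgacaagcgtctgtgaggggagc

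Cenpa: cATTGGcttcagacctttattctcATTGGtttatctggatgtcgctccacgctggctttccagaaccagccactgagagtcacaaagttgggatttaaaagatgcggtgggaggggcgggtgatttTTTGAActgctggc

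Hmmr: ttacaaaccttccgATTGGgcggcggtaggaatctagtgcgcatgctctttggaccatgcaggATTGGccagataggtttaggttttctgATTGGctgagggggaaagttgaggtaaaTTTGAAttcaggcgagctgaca

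Ccnb1: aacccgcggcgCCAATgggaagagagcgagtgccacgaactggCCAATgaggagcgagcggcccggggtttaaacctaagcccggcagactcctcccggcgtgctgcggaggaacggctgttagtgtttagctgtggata

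Nuf2: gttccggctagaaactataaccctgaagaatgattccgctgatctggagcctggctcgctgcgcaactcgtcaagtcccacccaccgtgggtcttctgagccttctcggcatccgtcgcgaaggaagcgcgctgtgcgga

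CHR letters were in 36 of the 55 promoters (65.5%), against 17.9% of all 32851 promoters of the table and 12.0% of the promoters of genes tested. CCAAT letters were in 43 of the 55 (78.2%), against 37.4% of all promoters and 37.8% of those of genes tested. Both were in 32 (58.2%), against 6.95% of all promoters and 4.86% of those of genes tested, and 8 (14.5%) held neither, against 51.7% and 55.1%. In 67 promoters of other mitotic genes, CHR letters were in 47.8%, CCAAT letters in 58.2% and both in 31.3%. In 40 promoters of DNA replication genes these shares were 10%, 57.5% and 7.5%. Of the E2F letters, TTGGCGC was in 10 of the 55 promoters (18.2%), against 2.45% of all and 4.08% of those of genes tested. TTCCCGC was in 6 (10.9%), against 4.60% of all and 8.11% of those of genes tested, a share near the background. In promoters of DNA replication genes TTGGCGC was in 22.5% and TTCCCGC in 42.5%. In those of other mitotic genes they were in 7.46% and 14.9%. Some of the 50 genes have more than 1 annotated start, and the windows of these starts share bases in Bub3, Ect2 and Prc1 but not in Cenpk. The letters of the CHR and CCAAT shared a base in 1 of the 55 promoters, that of Cdca8, and TTGGCGC shared bases with CCAAT in 3. Between 60 bases before and 50 after the start lay 32 of 46 CHR matches and 38 of 89 CCAAT matches. Between 120 and 30 bases before it lay 8 of the CHR matches and 44 of the CCAAT matches. Of the 33 genes with CHR letters 28 were called higher in p45-deficient cells, with a median log2 fold change of 0.98. Of the 17 without them 15 were called higher, with a median of 1.17. A match is a description of these letters and not a bound site.

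**Figure D3:**
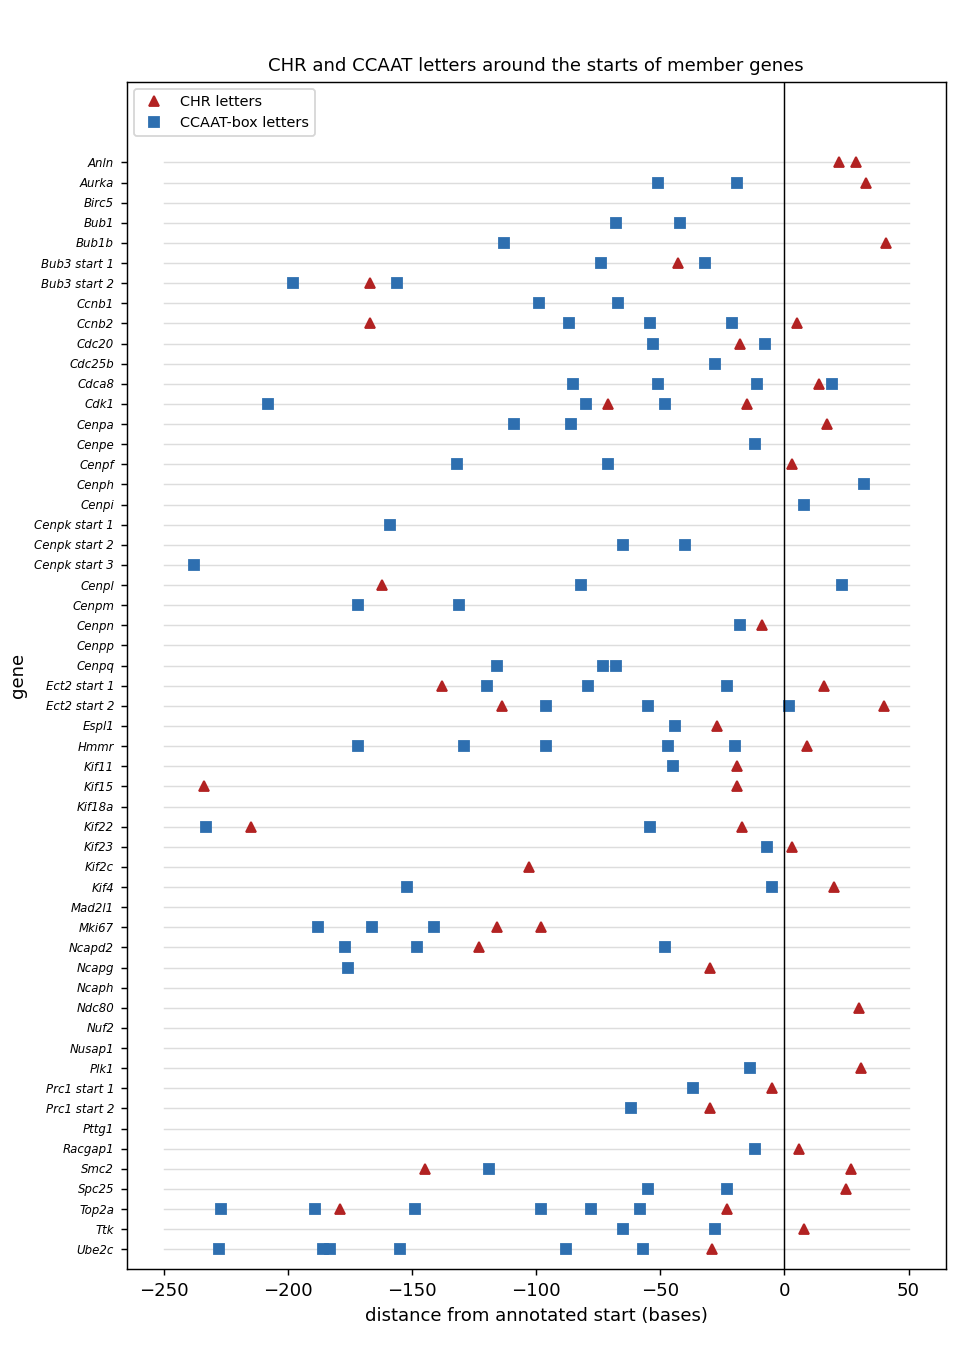
Positions of CHR letters (red triangles) and CCAAT letters (blue squares), on either strand, in the promoter windows of genes of the set; the x axis is the distance in bases from the annotated start. CCAAT letters lie mostly upstream of the start (median -71) and CHR letters nearer to it (median -17.5); 8 rows are empty.

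All 7 genes of the cyclin and Cdk1 group were called higher in p45-deficient cells, with a median log2 fold change of 1.17, and all 7 were called lower in Tcf1-deficient than in p45-deficient cells, with a median of -0.996. Ccna2, which encodes cyclin A2 of S phase and early mitosis, stood at 249 and 257 CPM in p45-deficient, 105 and 148 CPM in Tcf1-deficient and 136 and 115 CPM in control libraries. The p45-deficient pair lay above all others, and the Tcf1-deficient pair spanned the control pair. The difference from control was 2.02-fold (log2 1.02 ± 0.18 SE, edgeR adjusted p = 0.0134). Ccnb1, the gene of the main mitotic cyclin, had 186 and 186 CPM in p45-deficient, 63.3 and 104 CPM in Tcf1-deficient and 97.5 and 75.1 CPM in control libraries. Again the p45-deficient libraries did not overlap the rest, and the Tcf1-deficient pair was the widest. Its rise was 2.15-fold (log2 1.10 ± 0.24 SE, edgeR adjusted p = 0.0268). Cdk1 itself rose 2.26-fold (adjusted p = 0.00414), and so did Ccnb2, by 2.34-fold. The other 3 called genes were Cdc25b and Cdc25c, phosphatases that switch Cdk1 on, and Foxm1, a transcription factor of late cell cycle genes, which had the smallest change of the 7 (log2 0.77).

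Of 6 mitotic and checkpoint kinase genes, 5 were called higher in p45-deficient cells and 4 were called lower in Tcf1-deficient than in p45-deficient cells. Plk1, a kinase of spindle assembly and mitotic entry, stood at 146 and 166 CPM in p45-deficient, 85.6 and 118 CPM in Tcf1-deficient and 105 and 85.1 CPM in control libraries. The p45-deficient pair was the highest, and the difference from control was 1.64-fold (log2 0.71 ± 0.19 SE, adjusted p = 0.0419). Bub1b, which encodes the checkpoint protein BubR1, had 266 and 283 CPM in p45-deficient, 161 and 189 CPM in Tcf1-deficient and 179 and 166 CPM in control libraries. Its p45-deficient libraries were also above all others, by 1.59-fold over control (log2 0.67 ± 0.13 SE, adjusted p = 0.0158). Bub1, Ttk and Aurka were called too. Aurkb, the kinase of the chromosomal passenger complex, was not called: it had 115 and 140 CPM in p45-deficient, 75.7 and 91.6 CPM in Tcf1-deficient and 97.7 and 77.1 CPM in control libraries. These libraries did not overlap between p45-deficient and control cells, but the difference (log2 0.54 ± 0.17 SE) had an adjusted p of 0.0727.

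The spindle checkpoint and anaphase genes were the group with the smallest share of calls, 2 of 6 in each comparison with p45-deficient cells, Mad2l1 and Ube2c. Mad2l1 encodes Mad2, the checkpoint protein that binds Cdc20. It stood at 134 and 134 CPM in p45-deficient, 44.0 and 73.2 CPM in Tcf1-deficient and 51.1 and 51.4 CPM in control libraries. Its p45-deficient and control libraries each agreed closely and lay far apart, a 2.62-fold difference (log2 1.39 ± 0.22 SE, adjusted p = 0.0103). Bub3, a partner of Bub1 and BubR1, had 206 and 202 CPM in p45-deficient, 140 and 160 CPM in Tcf1-deficient and 154 and 156 CPM in control libraries. The p45-deficient pair was again on top, with a difference from control (log2 0.40 ± 0.12 SE) whose adjusted p was 0.0584. Cdc20, the activator of the anaphase-promoting complex, had 170 and 183 CPM in p45-deficient, 128 and 121 CPM in Tcf1-deficient and 136 and 99.5 CPM in control libraries. The control pair was the wider, and the difference of p45-deficient cells (log2 0.58 ± 0.16 SE) had an adjusted p of 0.0506.

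Espl1, the gene of separase, had 114 and 125 CPM in p45-deficient, 111 and 112 CPM in Tcf1-deficient and 117 and 83.8 CPM in control libraries. The p45-deficient and control libraries overlapped, and the difference was small (log2 0.25 ± 0.17 SE, adjusted p = 0.343). Pttg1 encodes securin, the inhibitor of separase, and stood at 13.6 and 13.1 CPM in p45-deficient, 12.6 and 10.7 CPM in Tcf1-deficient and 8.75 and 7.18 CPM in control libraries. Both mutants lay above control without overlap. Its differences from control were 0.74 ± 0.22 in p45-deficient (log2, SE, adjusted p = 0.0621) and 0.55 ± 0.22 in Tcf1-deficient cells (adjusted p = 0.624), the second of these being the highest of the 59 in its comparison.

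Of the 3 partners of Aurora B in the passenger complex, Birc5 and Cdca8 were called higher in p45-deficient cells. Birc5, which encodes survivin, stood at 164 and 160 CPM in p45-deficient, 77.1 and 89.0 CPM in Tcf1-deficient and 71.6 and 64.9 CPM in control libraries. The 3 groups did not overlap, with p45-deficient cells highest, and the difference between p45-deficient and control cells was 2.37-fold (log2 1.24 ± 0.13 SE, adjusted p = 0.00278). Incenp, the scaffold of the complex, had 225 and 246 CPM in p45-deficient, 198 and 203 CPM in Tcf1-deficient and 194 and 165 CPM in control libraries. The order of the groups was the same with narrower gaps, and the difference of p45-deficient from control cells (log2 0.39 ± 0.13 SE) had an adjusted p of 0.0728.

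Centromere protein genes were the largest group, and 10 of 11 were called higher in p45-deficient cells, with a median log2 fold change of 1.18. Cenpa encodes the histone H3 variant that marks the centromere. It stood at 110 and 118 CPM in p45-deficient, 64.1 and 63.6 CPM in Tcf1-deficient and 49.4 and 44.9 CPM in control libraries, so that the 3 groups did not overlap and Tcf1-deficient cells lay between the others. It had the smallest adjusted p of the 59 between p45-deficient and control cells (2.42-fold, log2 1.27 ± 0.12 SE, adjusted p = 0.00217). It was also lower in Tcf1-deficient than in p45-deficient cells (log2 -0.84 ± 0.12 SE, adjusted p = 0.0107). Between Tcf1-deficient and control cells the difference (log2 0.44 ± 0.12 SE) had an adjusted p of 0.520.

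Cenpe, a kinetochore motor, had 221 and 213 CPM in p45-deficient, 89.3 and 125 CPM in Tcf1-deficient and 95.7 and 96.0 CPM in control libraries, a 2.27-fold rise over control (log2 1.18 ± 0.17 SE, adjusted p = 0.00659). Cenpf, a kinetochore protein of the late cell cycle, had 238 and 233 CPM in p45-deficient, 101 and 133 CPM in Tcf1-deficient and 115 and 93.2 CPM in control libraries, a 2.26-fold rise (log2 1.18 ± 0.17 SE, adjusted p = 0.00701). The Tcf1-deficient pair spanned the control pair for Cenpe and overlapped it for Cenpf. Cenpk belongs to the constitutive centromere network, which links the centromere to the outer kinetochore. It stood at 23.3 and 19.6 CPM in p45-deficient, 5.45 and 10.6 CPM in Tcf1-deficient and 8.51 and 7.21 CPM in control libraries. Its rise over control was 2.74-fold with a wide error (log2 1.45 ± 0.33 SE, adjusted p = 0.0274), and its Tcf1-deficient libraries differed from each other the most of the 59 genes. Cenpq had the smallest called rise of the group, with 26.2 and 24.2 CPM in p45-deficient, 19.4 and 22.0 CPM in Tcf1-deficient and 13.7 and 17.5 CPM in control libraries. The Tcf1-deficient pair lay between the other pairs without overlap. Its difference was 0.69 ± 0.19 for p45-deficient against control (log2, SE, adjusted p = 0.0450) and -0.28 ± 0.18 for Tcf1-deficient against p45-deficient (adjusted p = 0.331). Cenpm was the member of the group not called against control.

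All 4 subunits of the Ndc80 complex, the main microtubule anchor of the kinetochore, were called higher in p45-deficient than in control cells and lower in Tcf1-deficient than in p45-deficient cells. Ndc80 stood at 67.9 and 77.8 CPM in p45-deficient, 27.3 and 33.7 CPM in Tcf1-deficient and 26.2 and 21.9 CPM in control libraries. The 3 groups did not overlap, and its 3.03-fold rise over control was the largest of the 59 (log2 1.60 ± 0.17 SE, adjusted p = 0.00323). Nuf2, its coiled-coil partner, had 97.4 and 89.4 CPM in p45-deficient, 30.4 and 47.3 CPM in Tcf1-deficient and 38.2 and 36.5 CPM in control libraries. Its p45-deficient pair stood alone, 2.50-fold over control (log2 1.32 ± 0.21 SE, adjusted p = 0.00908), although its promoter window held neither CHR nor CCAAT letters.

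Spc25 and Spc24 form the centromere-facing end of the complex. Spc25 stood at 72.6 and 66.7 CPM in p45-deficient, 23.7 and 30.4 CPM in Tcf1-deficient and 29.0 and 26.2 CPM in control libraries, and Spc24 at 99.3 and 95.6 CPM in p45-deficient, 61.2 and 53.1 CPM in Tcf1-deficient and 54.5 and 48.8 CPM in control libraries. Both had p45-deficient libraries apart from all others, by 2.53-fold over control for Spc25 (log2 1.34 ± 0.16 SE, adjusted p = 0.00441) and 1.89-fold for Spc24 (log2 0.92 ± 0.13 SE, adjusted p = 0.00699). Per kilobase of exon, the mean levels of the subunits in p45-deficient cells were 33.1 CPM per kb for Ndc80, 33.8 for Nuf2, 42.7 for Spc24 and 43.9 for Spc25. In control cells these levels per kilobase were 10.9 for Ndc80, 13.5 for Nuf2, 22.6 for Spc24 and 17.4 for Spc25. Exon lengths came from GENCODE M21, which may not be the annotation the reads were counted on.

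**Figure D4:**
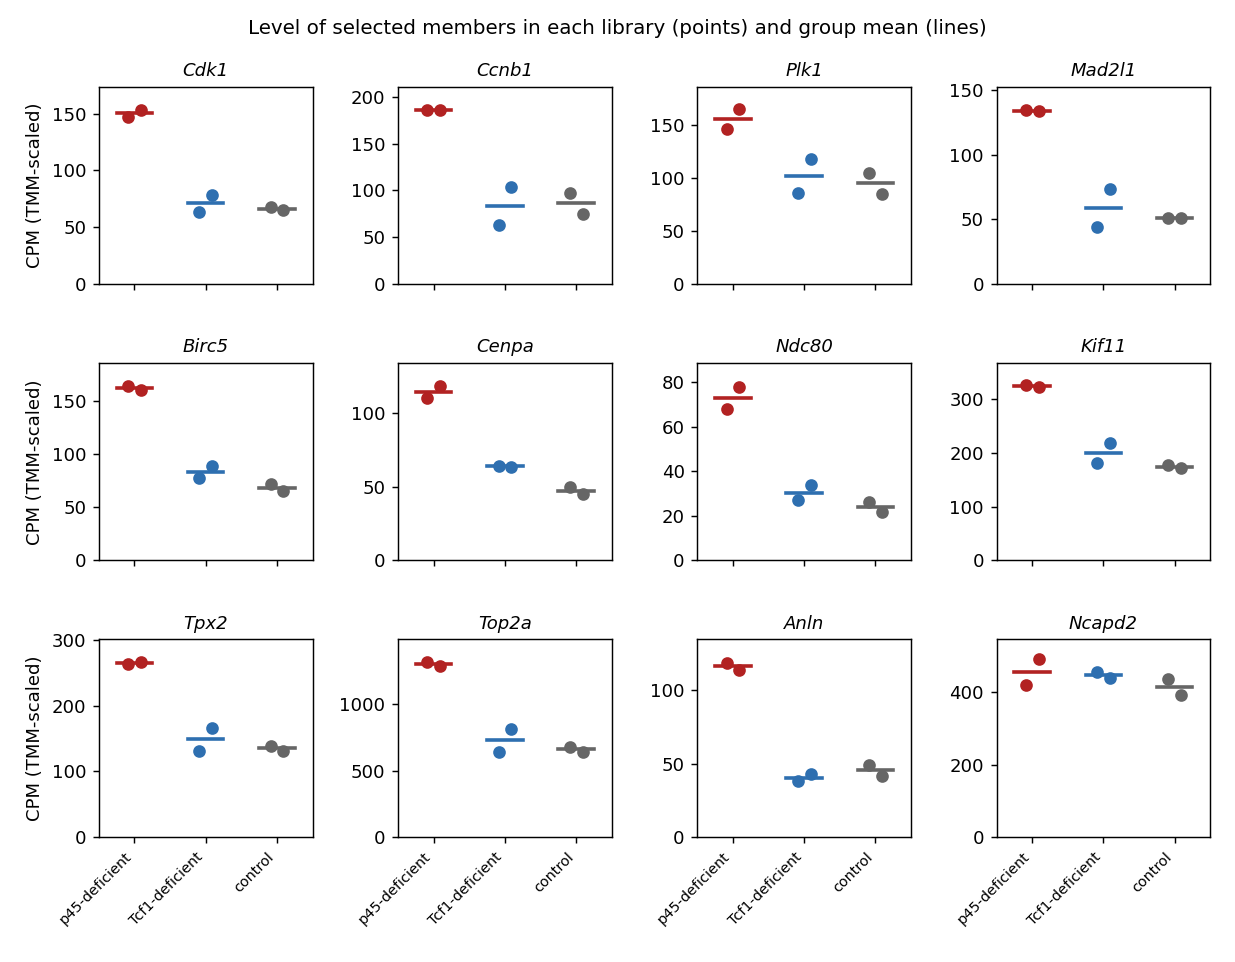
CPM of 12 genes in each library (points, 2 per group) with the group mean (lines), for p45-deficient (red), Tcf1-deficient (blue) and control (grey) cells. In 11 panels the p45-deficient points lie above all others, with Ndc80 at 67.9 and 77.8 CPM against 26.2 and 21.9 CPM in control, whereas the p45-deficient points of Ncapd2 overlap those of both other groups.

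All 8 kinesin genes were called higher in p45-deficient cells, with a median log2 fold change of 0.92, and 6 were called lower in Tcf1-deficient than in p45-deficient cells. Kif11 encodes Eg5, the motor that pushes spindle poles apart. It stood at 325 and 321 CPM in p45-deficient, 180 and 218 CPM in Tcf1-deficient and 177 and 171 CPM in control libraries, with no overlap between the groups. Its rise over control was 1.86-fold (log2 0.89 ± 0.13 SE, adjusted p = 0.00722). Kif15, a motor that acts with Eg5 on spindle length, had 174 and 171 CPM in p45-deficient, 87.0 and 109 CPM in Tcf1-deficient and 76.8 and 75.7 CPM in control libraries. It too had 3 separate groups, with a 2.26-fold rise in p45-deficient cells (log2 1.17 ± 0.14 SE, adjusted p = 0.00424) and a difference of 0.37 ± 0.14 in Tcf1-deficient cells (log2, SE, adjusted p = 0.613). The largest rise of the group was in Kif18a, which damps chromosome movements (log2 1.33), and the smallest in Kif23, of the central spindle (log2 0.67).

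The 4 other spindle genes were called in both comparisons with p45-deficient cells. Tpx2, the activator of Aurora A at spindle microtubules, had 264 and 267 CPM in p45-deficient, 131 and 167 CPM in Tcf1-deficient and 139 and 132 CPM in control libraries. Prc1, which bundles the central spindle, had 159 and 151 CPM in p45-deficient, 79.0 and 99.0 CPM in Tcf1-deficient and 80.9 and 82.0 CPM in control libraries. For each gene the p45-deficient pair stood apart and the Tcf1-deficient pair spanned the control pair. The rises over control were 1.96-fold for Tpx2 (log2 0.97 ± 0.14 SE, adjusted p = 0.00737) and 1.90-fold for Prc1 (log2 0.93 ± 0.14 SE, adjusted p = 0.00797). Nusap1 and Hmmr, which encode proteins of spindle microtubules, had log2 changes of 1.14 and 1.13.

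Of the 7 condensin and chromosome genes, 4 were called higher in p45-deficient cells, and the other 3 were among the 10 of the set without a call. Per kilobase of exon, Smc4 at 128 CPM per kb and Top2a at 127 CPM per kb had the highest mean levels of the 59 genes in control cells. Top2a, the topoisomerase that untangles sister chromatids, stood at 1321 and 1287 CPM in p45-deficient, 644 and 816 CPM in Tcf1-deficient and 679 and 643 CPM in control libraries. The p45-deficient pair was far above the others, by 1.97-fold over control (log2 0.98 ± 0.14 SE, adjusted p = 0.00627). Mki67, the gene of the proliferation antigen Ki-67, had 1166 and 1237 CPM in p45-deficient, 542 and 830 CPM in Tcf1-deficient and 804 and 666 CPM in control libraries. Its p45-deficient libraries were the highest, but the other pairs were wide, and the difference from control (log2 0.71 ± 0.20 SE) had an adjusted p of 0.0565. Against p45-deficient cells, Tcf1-deficient cells were lower by a margin at the threshold (log2 -0.81 ± 0.20 SE, adjusted p = 0.04999).

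Of the condensin genes, Smc2, Ncapg and Ncaph were called higher in p45-deficient cells and Smc4 and Ncapd2 were not. Ncapd2, a HEAT-repeat subunit of condensin I, had 420 and 492 CPM in p45-deficient, 455 and 440 CPM in Tcf1-deficient and 438 and 392 CPM in control libraries. Its p45-deficient libraries overlapped those of both other groups, and its log2 difference from control was the smallest of the 59 (0.14 ± 0.13 SE, adjusted p = 0.491). Smc4, an ATPase subunit shared by both condensins, had a log2 change of 0.62 with an adjusted p of 0.0762.

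All 3 cytokinesis genes were called in both comparisons with p45-deficient cells. Anln encodes anillin, the scaffold of the contractile ring, and stood at 118 and 114 CPM in p45-deficient, 38.1 and 42.7 CPM in Tcf1-deficient and 49.3 and 41.5 CPM in control libraries. Its p45-deficient pair was far from the rest, 2.56-fold over control (log2 1.36 ± 0.14 SE, adjusted p = 0.00275). Racgap1, of the centralspindlin complex, had 173 and 179 CPM in p45-deficient, 114 and 134 CPM in Tcf1-deficient and 104 and 97.4 CPM in control libraries. All 3 groups were apart, with a 1.75-fold rise in p45-deficient cells (log2 0.80 ± 0.13 SE, adjusted p = 0.00903). Ect2, the exchange factor that activates RhoA at the furrow, had 134 and 130 CPM in p45-deficient, 59.9 and 91.3 CPM in Tcf1-deficient and 64.6 and 63.0 CPM in control libraries, with a Tcf1-deficient pair that spanned control and a 2.07-fold rise in p45-deficient cells (log2 1.05 ± 0.19 SE, adjusted p = 0.0150).

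**Figure D5:**
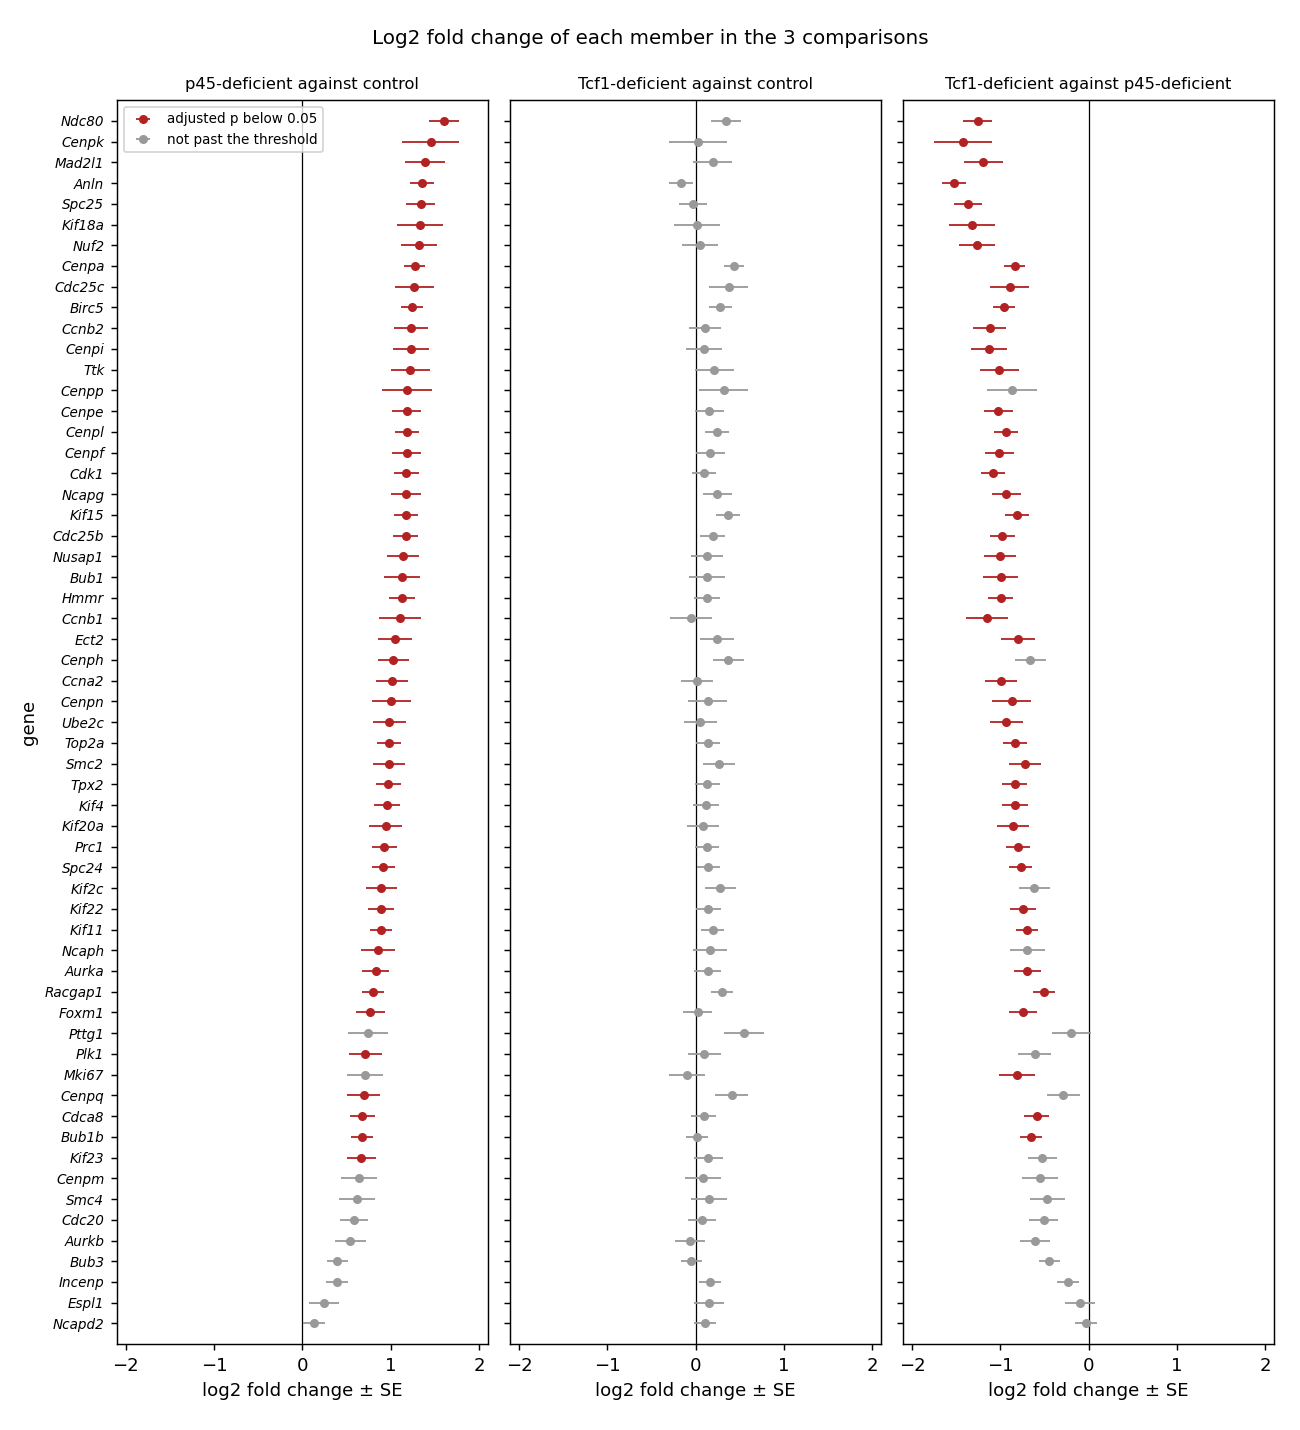
Log2 fold change with its standard error (bars) for each of the 59 genes in 3 comparisons, ordered from top to bottom by the change between p45-deficient and control cells; red marks an adjusted p below 0.05. Points run from 1.60 (Ndc80) to 0.14 (Ncapd2) on the left, lie near 0 in the middle with none red, and are at or below -0.03 on the right.

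In Tcf1-deficient cells, 0 of the 59 genes were called against control, in a comparison that called 0% of the 12939 genes in either direction. The median log2 fold change of the 59 was 0.14, against 0.01 over all genes, and 53 of the 59 were above 0, as were 6627 of the 12939 genes tested. At an unadjusted p below 0.05 there were 4 of the 59, where 7.91% of all genes passed in either direction and 4.3% in the higher direction, and DESeq2 called 0 of the 59. The 4 were Cenpa, Kif15, Pttg1 and Racgap1, all higher in Tcf1-deficient cells. Libraries did not overlap, with the Tcf1-deficient pair higher, for 13 of the 59, where this held for 16.4% of all genes. The median rested on which Tcf1-deficient library was used: it was 0.32 without the first, with 58 of the 59 above 0, and -0.07 without the second, with 20 of the 59 above 0. The largest negative difference was in Anln (log2 -0.17 ± 0.14 SE, adjusted p = 0.764).

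Set directly against each other, 43 of the 59 genes were called lower in Tcf1-deficient than in p45-deficient cells, where 5.36% of all genes were called lower, and 0 were called higher, where 5.05% were. The median log2 fold change was -0.84, against -0.01 over all genes. Libraries did not overlap for 58 of the 59, with Tcf1-deficient cells lower, where this held for 33.3% of all genes, and the exception was Ncapd2. Anln had the largest difference, 2.88-fold lower in Tcf1-deficient cells (log2 -1.52 ± 0.14 SE, adjusted p = 0.00310). Cenpk followed (log2 -1.42 ± 0.33 SE, adjusted p = 0.0382), then Spc25 (log2 -1.37 ± 0.16 SE, adjusted p = 0.00603). At the other end were Ncapd2 (log2 -0.03 ± 0.13 SE, adjusted p = 0.911), Espl1 (log2 -0.09 ± 0.17 SE, adjusted p = 0.739) and Pttg1 (log2 -0.19 ± 0.22 SE, adjusted p = 0.585). Calls in this comparison also rested on single libraries: 1 and 2 genes were called without the first and the second p45-deficient library, 21 and 20 without the first and the second control library, and 34 and 52 without the first and the second Tcf1-deficient library. Anln was the 1 gene called under each of these 6 omissions.

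Further genes of the mitotic pathway, listed by name, were read from the same fit, in which 8.47% of all genes were called higher and 7.55% lower in p45-deficient against control cells. Of 72 other mitotic genes tested, 45 were called higher in p45-deficient than in control cells and 0 lower, with a median log2 fold change of 0.77. Dlgap5, a spindle protein gene, had 118 and 114 CPM in p45-deficient, 46.6 and 56.8 CPM in Tcf1-deficient and 49.2 and 46.6 CPM in control libraries. Sgol2, a protector of centromeric cohesin, rose 2.72-fold (adjusted p = 0.00495). Of 16 genes of the anaphase-promoting complex, 4 were called higher and 0 lower (median 0.44), and of 13 cohesin genes 4 were called higher and 0 lower (median 0.37), with Esco2, an acetyltransferase of cohesin, at 2.33-fold. Of 44 DNA replication genes, 20 were called higher and 0 lower (median 0.59), among them Gins1 at 2.02-fold and Ccne1 at 2.21-fold. Of 19 genes of the DREAM complex and of cell cycle inhibitors, 4 were called higher and 1 lower (median 0.06). The called ones included Cdkn2c, an inhibitor of Cdk4 and Cdk6, at 2.36-fold (adjusted p = 0.00517). Between Tcf1-deficient and p45-deficient cells, 33 of the 72 other mitotic genes, 4 of the 16, 2 of the 13, 14 of the 44 and 1 of the 19 were called lower, where 5.36% of all genes were, and 1 of the 19 higher, where 5.05% were. Between Tcf1-deficient and control cells 0 genes of these lists were called.

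Marker genes of DN3 cells and of other cells were read beside these changes, and their part in the result was not tested. Unless another comparison is named, the counts of calls are for p45-deficient against control cells, where 8.47% of all genes were called higher and 7.55% lower. A count of 1 of 12 or 1 of 9 is near these shares. Sums cover every counted gene of a list, tested or not. Of 14 DN3 genes 0 were called, and their summed level was 12360 to 13223 CPM in p45-deficient, 9980 to 13222 CPM in Tcf1-deficient and 12425 to 14089 CPM in control libraries. The sums hide opposite moves: libraries did not overlap for 6 of the 14 with p45-deficient cells higher and 6 lower. Over all 12939 genes this held for 4906 and 4056. Between Tcf1-deficient and p45-deficient cells Hes1 was called higher and Ptcra, Rag1 and Thy1 lower, where 5.05% and 5.36% of all genes were. Genes that rise after beta-selection had 1 of 12 called higher in p45-deficient cells, with sums of 1442 to 1474 CPM in p45-deficient, 1647 to 1969 CPM in Tcf1-deficient and 1299 to 1584 CPM in control libraries. The called gene was Cd27, a costimulatory receptor gene, at 219 and 213 CPM in p45-deficient, 202 and 175 CPM in Tcf1-deficient and 133 and 150 CPM in control libraries (1.53-fold in p45-deficient over control, adjusted p = 0.0220). The list did not rise as a whole: its median log2 fold change was -0.21, with 5 of the 12 above 0 and a range of -2.54 to 1.89. Cd2 was at the top of that range, with 144 and 162 CPM in p45-deficient, 245 and 43.9 CPM in Tcf1-deficient and 18.7 and 63.7 CPM in control libraries (3.71-fold in p45-deficient over control, adjusted p = 0.253). Slc7a5 (log2 -0.51, adjusted p = 0.0894) and Nr4a1 (log2 -1.04, adjusted p = 0.187) were lower in p45-deficient than in control cells. For later double-positive cells 1 of 9 was called lower. Genes of early progenitors had 1 of 12 called higher and 6 called lower, with sums of 18.05 to 20.25 CPM in p45-deficient, 77.5 to 92.8 CPM in Tcf1-deficient and 99.8 to 101 CPM in control libraries. Kit, a growth factor receptor of progenitors, was 8.88-fold lower in p45-deficient than in control cells (adjusted p = 0.000935). It made much of these sums, at 38.6 and 54.4 CPM in Tcf1-deficient and 53.4 and 54.8 CPM in control libraries. Cd44 added 41.0 CPM in the first Tcf1-deficient library, against 4.70 CPM in the second. Between Tcf1-deficient and control libraries, 5 of the 12 were lower without overlap and 4 higher, where 2324 and 2123 of all 12939 genes were. Natural killer and innate lymphoid genes had 1 of 9 called higher, Gzma, and summed to 995 to 1012 CPM in p45-deficient, 475 to 520 CPM in Tcf1-deficient and 280 to 320 CPM in control libraries. Gzma, a granzyme gene, alone made 806 and 799 CPM of these sums in p45-deficient, 215 and 306 CPM in Tcf1-deficient and 123 and 136 CPM in control libraries. B cell genes had 1 of 5 called lower and summed to 14.5 to 16.5 CPM in p45-deficient, 20.5 to 30.6 CPM in Tcf1-deficient and at most 37.2 CPM in control libraries. Cd79b made most of these sums, at 15.7 and 13.3 CPM in p45-deficient, 17.7 and 28.4 CPM in Tcf1-deficient and 25.7 and 27.1 CPM in control libraries. Myeloid and dendritic genes had 0 of 8 called and summed to 28.8 to 30.7 CPM in p45-deficient, 25.2 to 117 CPM in Tcf1-deficient and 54.1 to 116 CPM in control libraries. Stromal genes had 0 of 5 called, at 169 to 182 CPM in p45-deficient, 199 to 215 CPM in Tcf1-deficient and 162 to 166 CPM in control libraries. Epcam and Pecam1 made most of these sums, at 62.7 to 112 CPM and 84.8 to 130 CPM over the 6 libraries. Foxn1, Krt5 and Pdgfra had at most 0.352 CPM in any library. Of the erythroid genes 1 of 3 tested was called higher with a sum of at most 4.63 CPM in any library. The globin genes Hba-a1, Hba-a2, Hbb-b1 and Hbb-b2 had 0 counts in all 6 libraries. That allows up to 0.145 CPM only if reads of these genes could be counted, and the annotation used is not known. Immediate-early genes, which respond to handling, had 2 of 15 called lower, Jun and Jund, and a median log2 fold change of -1.79. Fos stood at 4.74 and 5.41 CPM in p45-deficient, 296 and 594 CPM in Tcf1-deficient and 26.3 and 541 CPM in control libraries. In p45-deficient libraries the heat-shock gene Hsp90aa1, at 1977 and 1655 CPM, made most of the list's sum. It had 1021 and 1374 CPM in Tcf1-deficient and 1256 and 1502 CPM in control libraries. In the Tcf1-deficient and the second control libraries the other genes made most of it. Junb, for 1, stood at 36.2 and 44.3 CPM in p45-deficient, 590 and 772 CPM in Tcf1-deficient and 90.7 and 676 CPM in control libraries. The sums were 2305 to 2652 CPM in p45-deficient, 4126 to 5328 CPM in Tcf1-deficient and 2210 to 5557 CPM in control libraries.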

How the data were processed

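RNA-seq of 6 libraries (3 genotypes, 2 each) was used as the authors deposited it, as whole-number read counts per gene symbol in each library. Per the submitters' processing notes, TopHat2, featureCounts 1.5.0-p3, DESeq2 3.4 and the mm9 build were used, with no role or order given; no source used here names the annotation or the strand setting, so overlapping or antisense genes may share reads. Genes with low counts were removed with filterByExpr, library sizes were scaled by TMM, and a mean per group over all 6 libraries (3 residual degrees of freedom) was tested with the robust quasi-likelihood F test of edgeR 4.0.16 in R 4.3.3, two-sided, with Benjamini-Hochberg adjustment over 12939 genes. An SE is the log2 fold change divided by the square root of F. The script was tested on simulated data. With 2 libraries a group, an exact permutation test cannot go below p = 0.333 and was not used. Alternatives were other scalings, no filter, a replicate block, only the groups compared, DESeq2 1.42.0 and each library left out.

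The members and lists were chosen with earlier results of these data known. Values per library are given for the 2 genes of highest mean CPM in each of 10 role groups, for the 3 highest and 3 lowest log2 fold changes in each comparison, and for any call against the common direction, of which there was none; Cdk1, Ccnb2, Hmmr and the other genes named with a single value were chosen after their values were seen. For other lists at most 4 genes of smallest p could be named. Promoter motifs were searched as exact letters.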

Additional observations from a re-analysis of the deposited data

How the results depend on the processing

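Of the 59 genes, 0 fell in p45-deficient against control cells, 0 were called in Tcf1-deficient against control cells and 0 rose in Tcf1-deficient against p45-deficient cells under each of the 13 alternatives. With 1 library left out in turn, the lone library of a group being assumed to vary like the others and 2 residual degrees of freedom remaining, between 9 and 57 of the 59 were called higher in p45-deficient against control cells, and between 1 and 52 lower in Tcf1-deficient against p45-deficient cells. Their median log2 fold change then ran between 0.87 and 1.04 in p45-deficient against control, between -0.068 and 0.32 in Tcf1-deficient against control and between -1.03 and -0.62 in Tcf1-deficient against p45-deficient cells. Genes called in all ran between 258 and 3923, 0 and 894, and 105 and 3437 in the same order.

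With only the groups compared in the fit, 3907 genes were called for p45-deficient against control, and 488 genes, with 11 of the 59 lower, for Tcf1-deficient against p45-deficient; the cause was not tested. DESeq2 called 145 genes for Tcf1-deficient against control and 2432 for Tcf1-deficient against p45-deficient, and no filter called 33 for Tcf1-deficient against control. Scaling by library totals put the median of all genes for p45-deficient against control at -0.06, against 0.05 with TMM, and split the calls into 721 higher and 1281 lower, against 1096 and 977; upper-quartile scaling gave 820 and 1175. For Tcf1-deficient against p45-deficient, library totals gave 744 higher and 483 lower, against 654 and 694. Under library totals 46 of the 59 were called higher in p45-deficient cells and 35 lower in Tcf1-deficient against p45-deficient cells.

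The labels do not say whether the replicate numbers pair the libraries. Over all genes tested, correlations of same-numbered deviations were -0.01, -0.05 and -0.03. Such a correlation cannot exclude a pairing that affects only some genes. With the number as a replicate block, 47 of the 59 were called higher in p45-deficient against control cells among 1613 genes, 0 in Tcf1-deficient against control, and 35 lower in Tcf1-deficient against p45-deficient cells among 920 genes. Counts of these genes were at least 124 in each library, and 2 libraries a group limit the precision of every fold change.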
